A study of Mus musculus with 9 samples.

Results

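Small nucleolar RNAs (snoRNAs), small Cajal body RNAs, small nuclear RNAs and the noncoding genes that host snoRNAs were followed across 9 libraries of mouse brain labelled as oligodendrocytes, the cells that make myelin. The members were all genes of the deposited table whose symbol begins with Snora, Snord, Scarna or Rnu and a digit, together with the numbered Snhg (small nucleolar RNA host gene) genes other than Snhg11. They came to 136 genes of 23798, in 139 of 33299 table rows. Of these, 72 were box C/D snoRNAs, 36 box H/ACA snoRNAs, 9 small Cajal body RNAs, 4 small nuclear RNAs and 15 Snhg hosts. The groups were 3 libraries of TG mice given NM-101, 3 of TG mice given placebo and 3 of WT mice given placebo. The series title refers to alpha-synuclein made by neurons. The labels name neither the transgene and its promoter nor what NM-101 is, and give no strain, age or number of animals, so p-values here cover only how much these samples vary, and that variation may be technical. The RNA was isolated with a kit made for formalin-fixed, paraffin-embedded tissue and the libraries were made with QuantSeq.

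SnoRNAs guide the chemical modification of other RNAs. Box C/D snoRNAs guide 2′-O-methylation and box H/ACA snoRNAs guide pseudouridylation, mainly of ribosomal RNA, while small Cajal body RNAs do the same for the spliceosome's own RNAs. In mammals most of them are cut out of the introns of a host gene, and the Snhg genes are hosts whose spliced RNA is itself noncoding. Mature snoRNAs carry no poly(A) tail, whereas QuantSeq in its 3′ form primes on poly(A), so the spliced hosts are the usual target of such a library and the small RNAs are not. The labels do not say which form of the kit was used.

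Some members named in the results are shown 5′ to 3′ with T for U, from the GENCODE M21 transcripts on build GRCm38. Snord22 and Snord15b were above 0 in the most libraries, Snord42a held the highest single value, Snora81 and Scarna13 were at 0 in every NM-101 library but not in WT, and Rnu12 was the one member called. Rnu11 is shown as the partner of Rnu12 in the minor spliceosome. Capitals mark the C box (TGATGA or ATGAAGA, searched in the first 20 bases) and the D box (CTGA, in the last 20) of box C/D snoRNAs. They mark ACA in the last 8 bases of the H/ACA types and AATTTTTG or AATTTTTTG, the form of the Sm protein site, in Rnu11 and Rnu12. All searches were on the RNA's own strand.
Snord22: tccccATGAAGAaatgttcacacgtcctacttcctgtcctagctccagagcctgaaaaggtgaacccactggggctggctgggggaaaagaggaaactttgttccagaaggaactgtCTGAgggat
Snord15b: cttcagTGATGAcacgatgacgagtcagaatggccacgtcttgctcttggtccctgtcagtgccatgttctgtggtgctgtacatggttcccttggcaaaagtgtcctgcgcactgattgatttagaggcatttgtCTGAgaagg
Snord42a: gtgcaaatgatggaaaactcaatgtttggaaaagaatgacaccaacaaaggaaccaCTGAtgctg
Snora81: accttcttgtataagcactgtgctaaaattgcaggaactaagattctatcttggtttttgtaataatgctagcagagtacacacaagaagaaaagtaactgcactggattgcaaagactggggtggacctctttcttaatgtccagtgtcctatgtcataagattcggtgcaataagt
Scarna13: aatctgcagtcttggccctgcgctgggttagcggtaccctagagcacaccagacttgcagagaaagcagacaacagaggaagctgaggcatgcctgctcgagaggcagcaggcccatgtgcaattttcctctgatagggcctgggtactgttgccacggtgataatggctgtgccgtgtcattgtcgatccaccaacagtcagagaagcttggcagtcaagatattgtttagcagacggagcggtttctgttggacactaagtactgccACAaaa
Rnu11: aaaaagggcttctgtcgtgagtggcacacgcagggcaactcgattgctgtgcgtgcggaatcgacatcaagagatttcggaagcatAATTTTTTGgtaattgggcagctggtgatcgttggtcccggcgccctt
Rnu12: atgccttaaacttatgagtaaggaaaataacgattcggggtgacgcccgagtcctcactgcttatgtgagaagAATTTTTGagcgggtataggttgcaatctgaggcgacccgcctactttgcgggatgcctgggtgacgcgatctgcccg
Snord22 lies at chr19:8725866-8725991 on the plus strand within Snhg1, and Snord15b at chr7:99479563-99479707 on the minus strand within Rps3, which encodes a protein of the small ribosomal subunit. Both overlap an annotated exon of a host transcript, so their reads and those of the host cannot be fully told apart. Snord42a lies at chr11:78181299-78181363 on the minus strand in an intron of Rpl23a. Snora81 lies at chr16:23110756-23110933 on the plus strand within the translation factor gene Eif4a2, where it also overlaps an annotated exon. Scarna13 lies at chr12:105031075-105031349 on the minus strand in an intron of Snhg10. Rnu11, at chr4:132270080-132270213 on the minus strand, and Rnu12, at chr15:83149644-83149794 on the plus strand, lie in no other gene on their strand. Of 70 box C/D members with a sequence, 43 (61.4%) held both boxes in these windows, against 8.63% of 2792 other annotated small RNAs. With TGATGA as the only form of the C box, 42 of the 70 held both boxes. ACA was found at the end of 34 of 36 box H/ACA members (94.4%), against 26.0% of 2848 other small RNAs. The other small RNAs were set apart by gene name alone, so they can include snoRNAs of the same type under other names. The forms of the Sm site searched are those of Rnu11 and Rnu12, so their presence there is no result; 1.11% of 2884 other small RNAs hold either form. Snora81 does not have ACA in its last 8 bases and is shown with no capitals. RefSeq gives some of these RNAs a shorter length than GENCODE does, for example 45 against 65 bases for Snord42a.

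The columns of the table are not in 1 unit. The WT columns hold whole counts per RefSeq transcript that sum to 10612290, 14041951 and 11774367. Values in the TG columns behave as log2(FPKM + 1), FPKM being fragments per kilobase of transcript scaled to library depth, and this reading comes from the values. In all, the 12 oligodendrocyte markers checked were above 0 in every library, and their summed level ran from 4379 to 7918 CPM (reads scaled to a common library total, as explained with the hosts) in the NM-101 libraries, from 3447 to 10620 in the TG placebo libraries and from 6144 to 9926 in the WT libraries. The 10 neuron markers summed to between 7494 and 9476 CPM over the 9 libraries, and astrocyte markers, given with the host genes, were also present, so the libraries were not of oligodendrocyte RNA alone. In such bulk samples, fewer cells of a type and less RNA per cell cannot be told apart.

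Small RNAs were rare in every library. Of 121 small RNAs, 93 were at 0 in all 9 libraries, 28 were above 0 in at least 1 library and 0 were above 0 in all 9. The NM-101 libraries 1, 2 and 3 had 7, 7 and 4 small RNAs above 0. The TG placebo libraries had 3, 10 and 18, and the WT libraries had 9, 12 and 7. The count in TG placebo 1 was the lowest of the 9 and that in TG placebo 3 the highest, so the TG placebo range took in both other groups. The hosts, by contrast, were above 0 nearly throughout: 14, 15 and 15 of 15 in the NM-101 libraries and all 15 in each of the other 6. The exception was Snhg9 in NM-101 library 1.

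**Figure D1:**
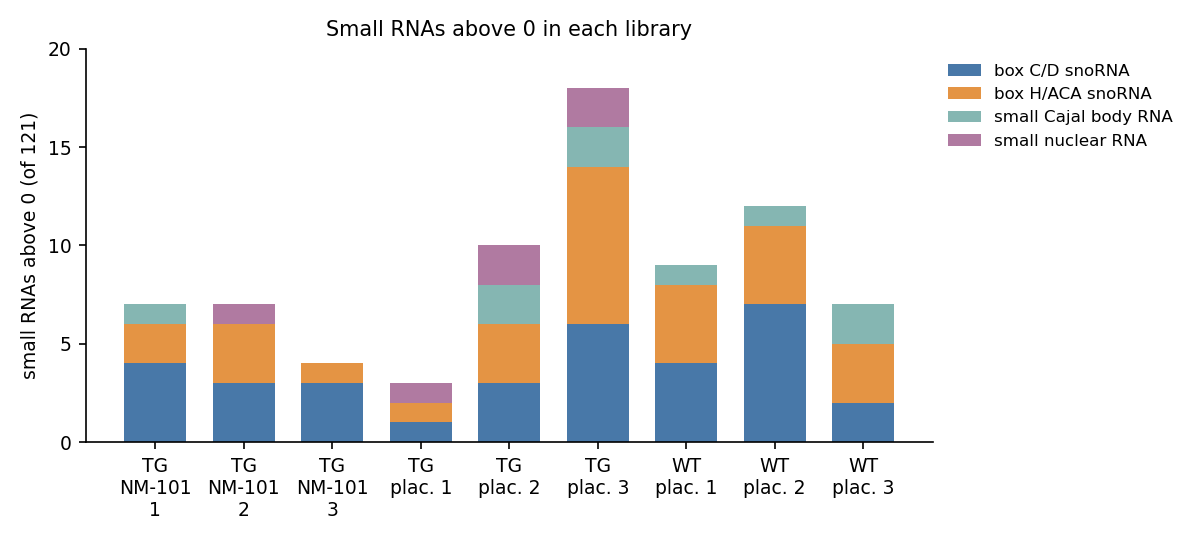
Number of the 121 small RNAs with a value above 0 in each library, stacked by family. The bars of TG NM-101 reach 4 to 7, those of TG placebo 3 to 18 and those of WT placebo 7 to 12, and the spread within TG placebo is the widest.

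In the WT libraries, where counts were given, the small RNAs together took 14, 20 and 11 counts. These are 1.32 CPM (95% exact binomial interval 0.721 to 2.21), 1.42 (0.870 to 2.20) and 0.934 (0.466 to 1.67), and the intervals cover counting error only. The highest count of any small RNA in a WT library was 5. The 15 hosts took 1290, 1716 and 1597 counts in the same libraries, or 122, 122 and 136 CPM. A count of 0 allows up to 0.283, 0.214 and 0.255 CPM in WT 1, 2 and 3 at 3 counts. Each small RNA at 0 was therefore not detectable at this depth, which does not show that it was absent.

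The TG libraries with the most small RNAs above 0 also had the highest median level of long RNAs that stay in the nucleus. Over 9 such RNAs in CPM, among them Malat1 and Meg3, the median departure from the mean of the 9 libraries was 0.01, -0.20 and -0.55 (log2) in NM-101 1, 2 and 3. It was -0.74, 0.80 and 1.37 in TG placebo 1, 2 and 3, and -0.04, -0.61 and -0.17 in WT 1, 2 and 3. TG placebo 2 and 3, with 10 and 18 small RNAs, stood at the top of this measure and TG placebo 1, with 3, at the bottom. In WT 2, 12 small RNAs went with a low value, so the order was not the same in WT. Malat1, Neat1, Meg3, Mirg, Miat and Ftx were higher in TG placebo 2 and 3 than in every other library. Pantr1, at 25.7 and 26.2 CPM there, was below every NM-101 library (28.2 to 34.1). Peg13, at 168 and 182, and Tug1, at 103 and 116, were not above NM-101 (167 to 184 and 110 to 125). The part of nuclear RNA content in the counts of small RNAs was not tested.

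Longer small RNAs were seen more often and had lower values. Of 45 small RNAs of at least 100 bases, 20 were above 0 in a TG library, against 4 of 76 shorter ones. The median length was 126 bases for the 28 small RNAs above 0 somewhere and 71 bases for the 93 at 0 throughout. Overlap with an exon of the host was about as frequent in both, at 11 of 28 (39.3%) and 38 of 93 (40.9%). In the TG libraries the value itself fell steeply with length. The 4 values of RNAs under 100 bases had a median of 12.10, from 8.87 to 17.12. From 100 to under 130 bases the median of 16 values was 6.40, from 130 to under 200 bases that of 20 values was 3.67, and from 200 bases up that of 9 values was 2.57, all on the log2(FPKM + 1) scale. Levels of small RNAs of different lengths can therefore not be compared with each other in these columns.

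**Figure D2:**
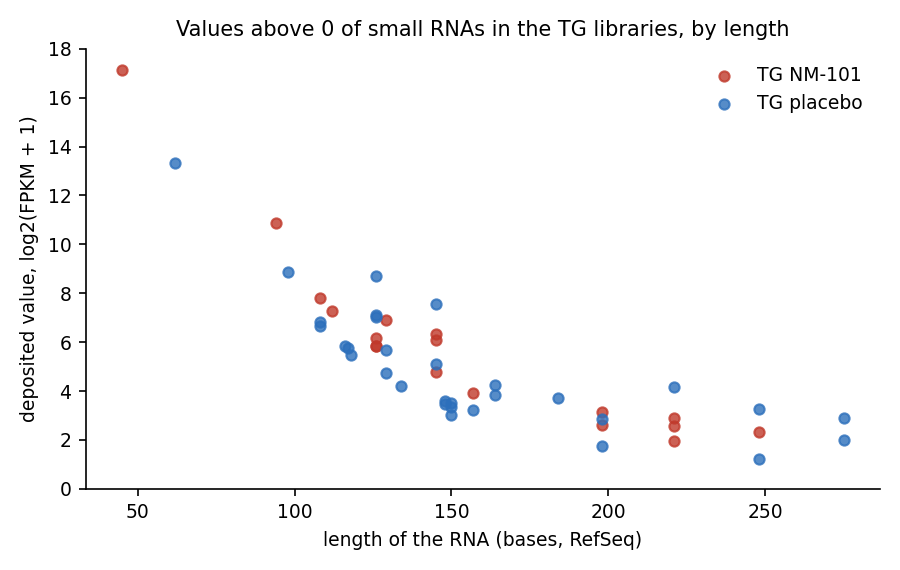
Every value above 0 of a small RNA in the 6 TG libraries, on the deposited log2(FPKM + 1) scale, against the RNA's length in bases, coloured by group. In TG NM-101 the values run from 17.12 at 45 bases to between 1.97 and 2.88 beyond 200 bases, and in TG placebo from 13.33 at 62 bases to between 1.22 and 4.15.

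The scale itself depends on length. The low values of longer RNAs lie in steps, as whole reads divided by a length would, and over transcripts of 700 to 6000 bases taken at 1 depth more values met a step when each library's own number of bases was first taken off the transcript length. These offsets, read from transcripts of 700 to 6000 bases, were 260, 260 and 280 bases in NM-101 1, 2 and 3 and 190, 230 and 230 bases in TG placebo 1, 2 and 3. With them, between 85.2% and 86.9% of low values lay within 0.2 of a whole read, against 65.4% to 72.6% with no offset. Within narrower classes, each with its own depth, the shares lay closer. From 1500 to 2500 bases they were 86.4% to 89.4% with an offset and 84.9% to 88.0% without. From 2500 to 6000 bases they were 86.2% to 87.3% and 85.6% to 86.8%, and the share was higher without an offset in NM-101 1 and TG placebo 1. The small RNAs, at 28 to 275 bases, are mostly shorter than the offset, so for those no length is left once it is taken off. The divisor used for them is not known, and its part in their high values was not tested.

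Many of the small RNA values lay near the lowest value for their length, in large part by construction. TG placebo 2 and 3 share an offset and hold most of the values, so each value, multiplied by the depth of its library, was set against the lower boundary of such values by length. Of 19 values of members of 100 to 170 bases, 12 lay within 1.2 times the boundary. Of these, Rnu11, Snora65, Snora52, Snord15a and Rnu12 in TG placebo 2 and Snora78 in TG placebo 3 define it. Rnu11, Snord15a and Rnu12 in TG placebo 3 were set only against their own TG placebo 2 values. Snora15, Snora64 and Snora70 in TG placebo 3 lay at 1.03, 1.04 and 1.02 times without defining it. Between these libraries the depth-scaled values of Rnu11, Rnu12 and Snord15a had ratios of 1.05, 1.04 and 1.04 (TG placebo 3 over TG placebo 2), as an equal number of reads would give. The other 5 RNAs above 0 in both libraries had ratios of 0.689 for Snora81, 2.03 for Scarna13, 2.96 for Snord22, 5.22 for Snord15b and 6.09 for Scarna6. Snora7a and Snora70, both of 129 bases, stood at a ratio of 2.00 in TG placebo 3. Snord22 and Snora47, both of 126 bases, had the same value in NM-101 2. Above the boundary stood Snord22, at 4.78 and 14.1 times in TG placebo 2 and 3, and Snord15b, at 2.96 and 15.5 times. Snora81 stood at 2.70 and 1.86 times in the same libraries and Snora7a at 2.03 times in TG placebo 3. Some multiples, such as 2.70, are not near a whole number. These multiples describe the steps and are not recovered counts. They were computed after the values had been seen.

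Snord22, a box C/D snoRNA released from the noncoding host Snhg1, was above 0 in 8 of 9 libraries. Its log2(FPKM + 1) value was 6.15, 5.84 and 0 in the NM-101 libraries, against 7.09, 7.05 and 8.71 in the TG placebo libraries, with 1, 2 and 2 counts in WT. The 3 NM-101 values lay below the 3 TG placebo values, as in 5.98% of all genes tested. The difference, -3.62 ± 2.03 (log2, SE, n = 3 each), did not pass the threshold (limma, adjusted p = 0.473), and the NM-101 spread comes from the library at 0. In CPM, with the offset described above taken off its length, Snhg1 stood at 6.17, 5.74 and 6.82 in NM-101 and at 9.66, 6.25 and 4.57 in TG placebo. TG placebo 3 thus had the highest Snord22 value and the lowest Snhg1 level of the 6.

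Snord15b, a box C/D snoRNA of Rps3, was also above 0 in 8 of 9 libraries. It had values of 4.79, 6.07 and 6.34 in NM-101, against 0, 5.10 and 7.56 in TG placebo, with 2, 5 and 1 counts in WT. The groups overlapped, and the difference of 1.52 ± 2.23 did not pass (limma, adjusted p = 0.789). Its host Rps3 stood at 541, 601 and 562 CPM in NM-101, at 508, 404 and 431 in TG placebo and at 559, 683 and 693 in WT. In each TG placebo library Rps3 was below every NM-101 and WT library. This held in TG placebo 3, where Snord15b was highest, and in TG placebo 1, where it was at 0. On this scale every NM-101 library was above every TG placebo library in 9.77% of all genes. Every TG placebo library was below every WT library in 27.1%.

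Rnu12 (U12) pairs with the branch point of the rare class of introns removed by the minor spliceosome. It was listed at 0 in all 3 NM-101 libraries, against 3.02, 3.36 and 3.51 in the 3 TG placebo libraries, and it had 0 counts in each WT library. The difference of -3.30 ± 0.16 passed the threshold (limma, adjusted p = 0.000142), and it is the only member of 31 tested that did. Over all 12699 genes tested, 0.0315% were called lower and 0.102% higher. The call may rest on values at the lowest step, but the lower boundary by length cannot decide this. Rnu12 in TG placebo 2 is itself a point of that boundary. Its multiple of 1.04 in TG placebo 3 only repeats its ratio between these libraries. Rnu12 passed the filter on low values through the TG placebo libraries alone, so, once tested, it had to differ. With the values multiplied by full length, the difference was -1.23 and did not pass (limma, adjusted p = 0.101). That scale leaves the offset in, so it does not put reads of short and long RNAs on a like footing. A pattern of 0 in all NM-101 and above 0 in all TG placebo libraries was shown by 0.171% of the 18715 genes above 0 in a TG library, and Rnu12 was the one small RNA with it. The reverse pattern was shown by 0.0855% of genes and by 0 small RNAs. A value of 0 in a table without counts may also be a failed estimate.

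Rnu11 (U11), which recognises the other end of the same introns, was at 0, 7.79 and 0 in NM-101, against 0, 6.66 and 6.84 in TG placebo, with 0 counts in WT. It overlapped between the groups and did not pass (limma, adjusted p = 0.825). The transcripts of the minor spliceosome proteins, 10 in the list, were all tested. Of these, 5 were higher and 5 lower in NM-101, the median difference was -0.01, and 0 were called, against a median of 0.03 over all genes.

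Snora81 and Scarna13 were at 0 in all NM-101 libraries and above 0 in all WT libraries. Counts of 1 to 3 in WT stand here beside log2(FPKM + 1) values, and a 0 among the latter may be a failed estimate. The share of all genes with this pattern was not computed, so the pattern cannot be read as a result about these RNAs. Snora81, in the host Eif4a2, had values of 0, 4.26 and 3.85 in TG placebo and 3, 3 and 3 counts in WT. Its difference between NM-101 and TG placebo, -2.70 ± 1.26, did not pass (limma, adjusted p = 0.398). Eif4a2 itself stood at 666, 768 and 789 CPM in NM-101, against 648, 561 and 560 in TG placebo, without passing the threshold (limma, adjusted p = 0.169 as deposited). Scarna13 had values of 0, 1.98 and 2.90 in TG placebo and 2, 1 and 2 counts in WT, and was too low on average to be tested. Its host Snhg10 stood at 3.22, 4.08 and 4.94 CPM in NM-101 and at 2.09, 4.52 and 4.92 in TG placebo, and the libraries of these groups overlapped.

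The highest values of each remaining family were those of 1 or a few libraries. Snord42a stood at 17.12 in NM-101 3, the highest value in that column, and at 0 in the other 8 libraries. At 45 bases in RefSeq, it is far shorter than the offset of 280 bases in that library, so this value says little about its amount. Among box H/ACA snoRNAs outside those above, Snora31, in an intron of Tpt1, reached 7.26 in NM-101 2 only. Scarna6, in an intron of Atg16l1, was at 2.34, 0 and 0 in NM-101, against 0, 1.22 and 3.28 in TG placebo, with 0, 0 and 1 counts in WT. Snord17, chosen for its pattern after the values were seen, stood at 2.88, 1.97 and 2.57 in NM-101, against 0, 0 and 4.15 in TG placebo, with 0, 1 and 0 counts in WT (limma, adjusted p = 0.735). Of the 16 small RNAs that passed the filter on low values, 5 did so through 1 TG library alone and 0 were above 0 in all 6.

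**Figure D3:**
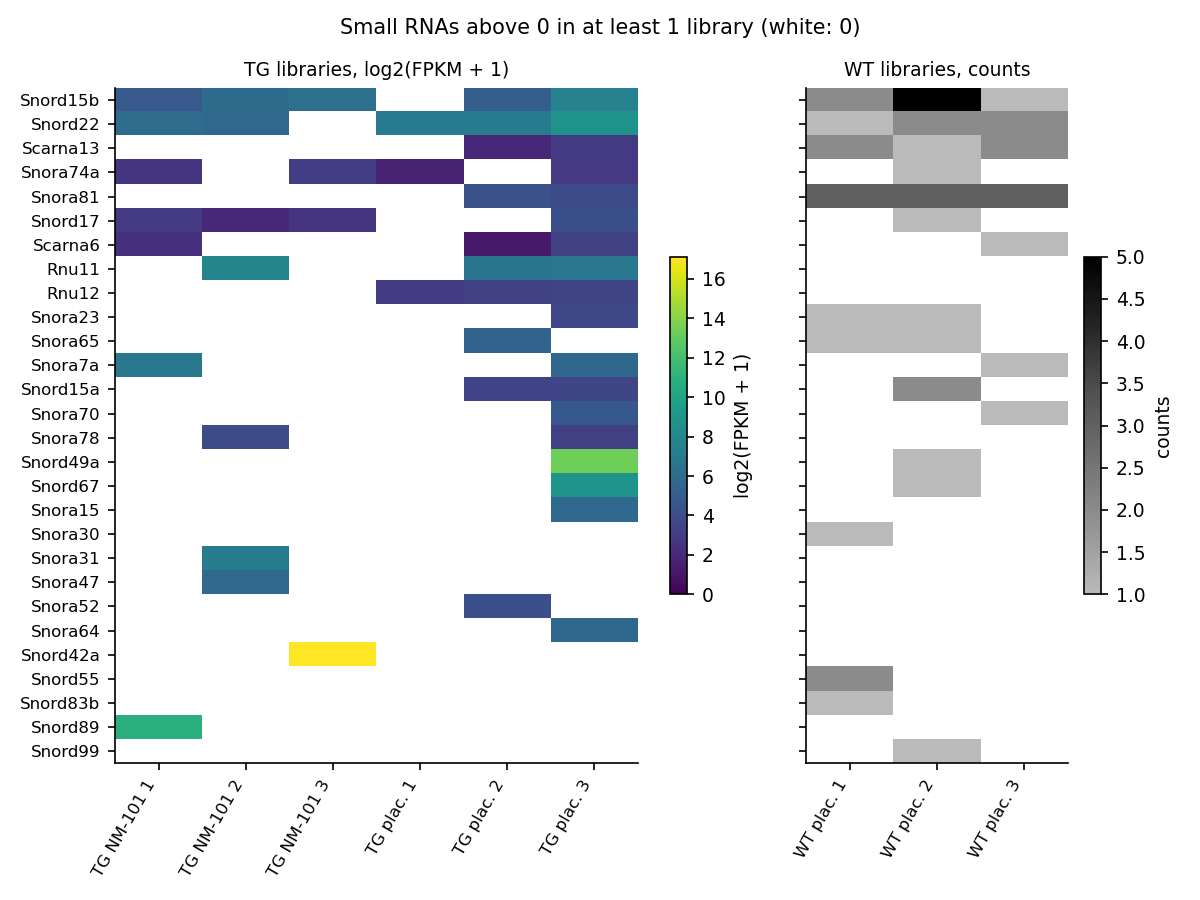
Values of the 28 small RNAs above 0 in at least 1 library, ordered by the number of libraries, with log2(FPKM + 1) for TG NM-101 and TG placebo on the left and counts for WT placebo on the right. White cells are 0. Rnu12 is filled in the 3 TG placebo libraries only, and Snord15b and Snord22 are filled in 8 of 9 libraries.

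The host genes were measured in nearly every library. To compare them between libraries and with WT, the TG values were written as CPM with each library's offset taken off the length, a scale chosen after the steps had been seen, and the WT counts were divided by their total. On it 13 hosts had a value. Snhg12 was the highest in each group, at 22.1 ± 2.9 CPM in NM-101, 21.1 ± 2.0 in TG placebo and 25.7 ± 2.6 in WT (SD, n = 3 each). Snhg8 came next, at 19.8 ± 2.6 in NM-101, 20.3 ± 2.9 in TG placebo and 25.0 ± 0.5 in WT. These are levels per read, not per length, so the order between hosts is that of reads. Snhg6, Snhg8 and Snhg12 together made up 52.5% to 57.0% of the summed host level in NM-101, 45.5% to 53.8% in TG placebo and 55.6% to 58.8% in WT. The sum over the 13 hosts was 93.4 to 110 CPM in NM-101, 102 to 116 in TG placebo and 117 to 133 in WT.

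Snhg6 differed between the scales. As deposited, it stood at 6.504, 6.729 and 6.919 in NM-101, against 6.033, 6.051 and 5.883 in TG placebo (log2(FPKM + 1)), and every NM-101 library was above every TG placebo library. The difference of 0.73 ± 0.12 was the nearest of all hosts to the threshold and did not pass it (limma, adjusted p = 0.0720). With the offset taken out, it was at 12.6, 14.7 and 14.4 CPM in NM-101, against 13.5, 11.1 and 9.86 in TG placebo, and the libraries overlapped. The difference was then 0.26 ± 0.16 (limma, adjusted p = 0.493). Snhg6 is 400 bases long, so little of its length is left once the offset is off, and its gene overlaps Mcmdc2 on the other strand. Snhg3, of 437 bases, moved likewise: 0.52 ± 0.16 as deposited (limma, adjusted p = 0.2004) and 0.14 ± 0.18 with the offset taken out (limma, adjusted p = 0.740). Snhg3 shares its strand and span with Rcc1, so reads may be split between them.

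Short transcripts as a class moved likewise. The median difference between NM-101 and TG placebo as deposited was 0.35 over 56 genes of over 400 to 500 bases, 0.32 over 100 genes of over 500 to 600 bases, 0.27 over 115 genes of over 600 to 700 bases, 0.15 over 533 genes of over 700 to 1000 bases and 0.01 over 1452 genes of over 1500 to 2000 bases. With the offset taken out, these medians were 0.03, 0.10, 0.11, 0.03 and -0.03, so those from 500 to 700 bases did not fall to 0. Of the 13 genes called higher over the whole table, 8 were under 700 bases, and of the 10 that had a value with the offset taken out, 0 were still called (limma). The 6 of these under 700 bases differed by 0.74 to 1.02 as deposited and by 0.45 to 0.75 with the offset taken out. The 3 longest kept their size: Sox9, Fam107a and Pou3f1 differed by 0.77, 0.84 and 0.93 as deposited and by 0.78, 0.82 and 0.94 with the offset taken out (limma, adjusted p = 0.0856, 0.130 and 0.0850). The loss of their calls thus went with no fall in the difference. The offsets were larger in NM-101 than in TG placebo, but below 700 bases they are an extrapolation, and their part in the values of short transcripts was not tested beyond these medians.

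**Figure D4:**
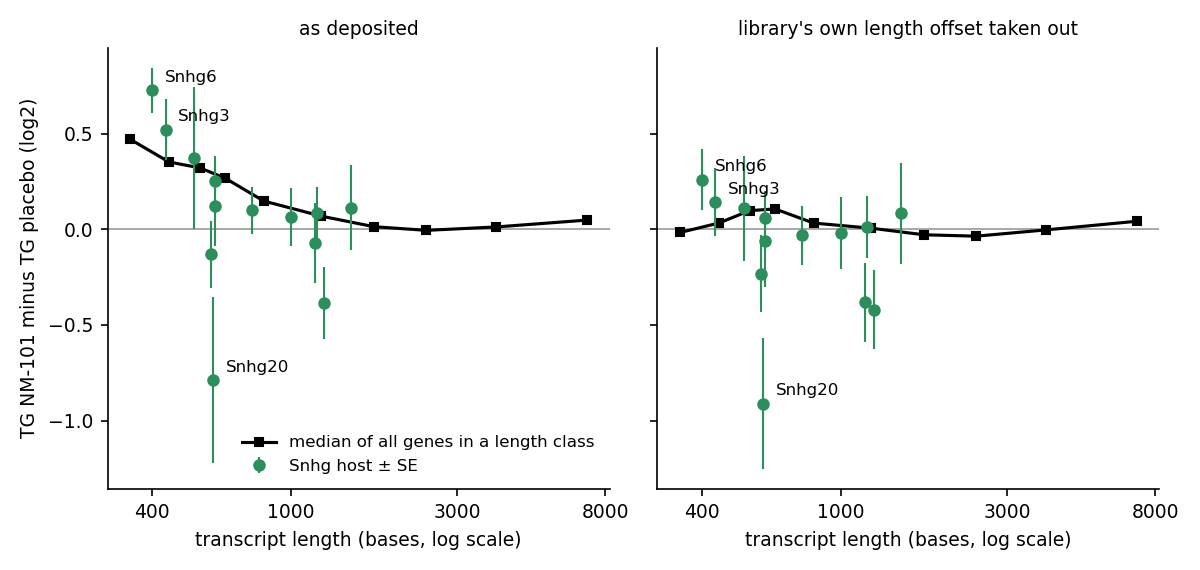
Difference between TG NM-101 and TG placebo (log2) against transcript length for 13 Snhg hosts (green, ± SE) and for the median of all genes in a length class (black), as deposited on the left and with each library's offset taken out on the right. On the left the medians of short transcripts reach 0.47 and Snhg6 stands at 0.73; on the right the medians lie between -0.04 and 0.11 and Snhg6 stands at 0.26.

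Over all 15 hosts, 10 were higher and 5 lower in NM-101 as deposited, with a median of 0.10 against 0.03 over all genes tested, and 0 were called (limma). Before adjustment, 2 hosts were under 0.05, Snhg3 and Snhg6, both higher, as were 10.7% of all genes, with 4.17% lower. In 3 hosts, Snhg3, Snhg6 and Snhg12, every NM-101 library was above every TG placebo library, as in 13.6% of all genes tested, and in 0 hosts below, as in 5.98%. With the offset taken out, 6 of 13 hosts were higher and 7 lower, the median was -0.02 and 0 were called (limma), with 0% of all genes called higher and 0.0242% lower. Before adjustment, 1 host was under 0.05, Snhg20, which was lower (5.56% of all genes lower, 7.54% higher). In 1 host, Snhg17, every NM-101 library was below every TG placebo library (7.89% of all genes), and in 0 hosts above (9.77%).

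Snhg20 varied more within TG placebo than any other host with an offset value. It stood at 4.86, 5.84 and 4.93 CPM in NM-101, against 5.50, 12.5 and 17.0 in TG placebo, with 6.69, 4.99 and 7.39 in WT. TG placebo 2 and 3 were above every other library, and TG placebo 1 was not. The difference between NM-101 and TG placebo was -0.91 ± 0.34 (log2, limma, adjusted p = 0.337), and -0.79 ± 0.44 as deposited (limma, adjusted p = 0.439). The same TG placebo libraries were the high ones for the median of nuclear RNAs and, among the TG libraries, for the number of small RNAs. The part of this in the Snhg20 level was not tested.

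Of the 13 hosts, Snhg17 had the lowest ratio to WT in both TG groups. It was at 1.083, 1.198 and 0.882 CPM in NM-101 and at 1.30, 2.04 and 1.96 in TG placebo, against 4.52, 4.56 and 4.33 in WT. The groups did not overlap with WT on either scale. The ratio to WT was 0.236 in NM-101 and 0.395 in TG placebo. The WT counts divide unevenly between its RefSeq transcripts, with 48, 52 and 14 counts on the longer and 0, 12 and 37 on the shorter, so the assignment of reads to transcripts, which may differ between the WT and TG columns, bears on this value and was not tested. Between NM-101 and TG placebo the difference was -0.42 ± 0.21 (limma, adjusted p = 0.416).

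Snhg12 and Snhg8, the highest hosts, differed between NM-101 and TG placebo by 0.06 ± 0.14 and -0.03 ± 0.15 (log2, limma, adjusted p = 0.875 and 0.948). Snhg4 stood at 11.6 ± 1.3 CPM in NM-101, 11.6 ± 1.8 in TG placebo and 11.6 ± 1.8 in WT. Snhg5 stood at 6.04 ± 1.22 in NM-101, 6.06 ± 0.44 in TG placebo and 7.49 ± 0.29 in WT. Snhg1, Snhg10, Snhg15, Snhg16 and Snhg18 had group means between 1.55 and 6.83 CPM, and differed between NM-101 and TG placebo by -0.38 to 0.11 (log2), none called (limma, adjusted p from 0.447 to 0.929). Snhg7 has no length in the annotation used and stood at 2.72, 2.89 and 2.94 in NM-101, against 2.501, 2.627 and 3.130 in TG placebo, as log2(FPKM + 1), with 38, 31 and 21 counts in WT. Snhg9, which lies opposite Rps2 and is only 183 bases long in GENCODE, was at 0, 5.31 and 3.61 in NM-101, against 4.27, 4.57 and 5.42 in TG placebo, with 6, 5 and 6 counts in WT.

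**Figure D5:**
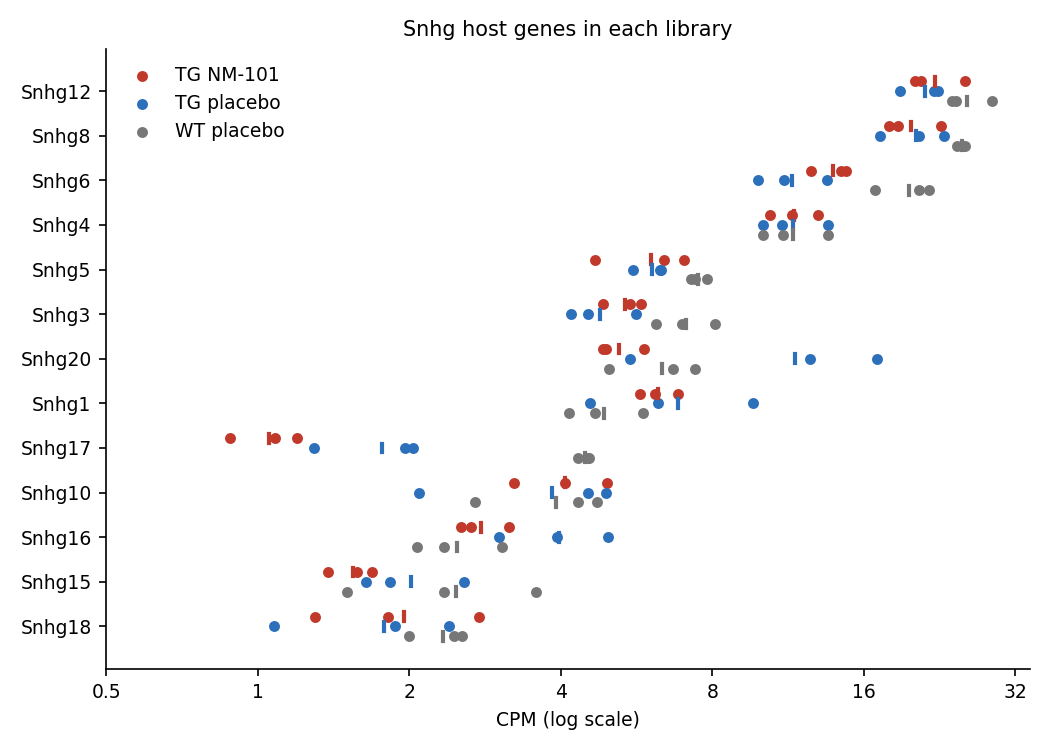
CPM (log scale) of 13 Snhg hosts in each library, with each library's offset taken out in the TG columns, TG NM-101 above TG placebo above WT placebo; points are libraries and short vertical lines are group means. Snhg12 and Snhg8 are highest in every group, Snhg20 is spread widely in TG placebo, and Snhg17 is lower in both TG groups than in WT.

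Against WT the direction of the hosts depended on the scale, and no test was made because the columns were normalized separately. When the WT counts were divided by full length, the median host difference was 0.50 for NM-101 minus WT and 0.35 for TG placebo minus WT, each against 0.05 over all genes. On that scale every NM-101 library was above every WT library in 7 of 14 hosts (23.5% of all genes) and below in 1 (13.1%), and every TG placebo library was above in 4 (20.8%) and below in 1 (15.9%). With the offset taken out the medians were -0.23 and -0.27, against -0.11 and -0.09 over all genes. Of 13 hosts, 5 were then below WT without overlap in NM-101 (27% of all genes) and 6 in TG placebo (27.1%), and 0 were above in either (13.2% in each). Short transcripts as a class moved the same way. Over the 56 genes of over 400 to 500 bases, the median of TG placebo minus WT was 0.34 on full length and -0.49 with the offset taken out. Neither scale was level over length, so the hosts, most of which are short, cannot be placed above or below WT from these columns.

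The hosts of the small RNAs were also taken from the annotation as a whole. Of the 121 small RNAs, 120 were found in GENCODE M21, 111 lay within a gene on the same strand and 9 in none. Of the 111, 62 were wholly in introns, 49 overlapped an exon and 10 were in a gene named Snhg there. Snhg4, Snhg7 and Snhg16 were not found in GENCODE by name, so they could not be counted as hosts. By RefSeq position, Snora17 and Snora43, counted among the 9, lie within the span of Snhg7. Snora74a likewise lies within the span of Snhg4, and Snord1a, Snord1b and Snord1c within that of Snhg16. The named hosts came to 83 genes, many of them ribosomal protein or translation genes, of which 77 were tested. Of these, 53 were higher and 24 lower in NM-101, with a median of 0.26 as deposited and 0.19 with the offset taken out for 75 of them, and 0 were called (limma). Markers of cell types are given beside this, and none of the astrocyte, microglia and endothelial markers was at 0 in any library. The difference was above 0 for each of 8 astrocyte markers (median 0.39 as deposited, 0.37 with the offset taken out), and Sox9 was called as deposited. They summed to between 5324 and 7073 CPM in NM-101, 3521 and 4418 in TG placebo and 6223 and 7037 in WT. It was also above 0 for each of 8 microglia markers (median 0.37 as deposited, 0.34 with the offset taken out), of which 0 were called (limma). Their sums ran from 493 to 506 CPM in NM-101, from 374 to 427 in TG placebo and from 463 to 466 in WT. It was below 0 for each of 6 endothelial markers (median -0.29, 0 called, limma). These summed to 68.4 to 80.1 CPM in NM-101, 75.2 to 119 in TG placebo and 91.9 to 167 in WT. The median was 0.09 for 12 oligodendrocyte markers (9 higher, 3 lower) and 0.01 for 10 neuron markers (6 higher, 4 lower), with 0 called (limma). The 5 choroid plexus markers had a median of -0.10 (1 higher, 4 lower, 0 called, limma). They summed to 56.1, 1002 and 77.6 CPM in NM-101 1, 2 and 3. Their sums were 4697, 17.6 and 21.4 in TG placebo 1, 2 and 3, and 3702.5, 12.1 and 37.9 in WT 1, 2 and 3. The part of cell makeup in the host values was not tested. Rpl23a, the host of Snord42a, stood at 10.40, 10.50 and 10.53 in NM-101, against 9.94, 9.68 and 9.90 in TG placebo, with a difference of 0.64 ± 0.10 (limma, adjusted p = 0.0720), and of 0.41 with the offset taken out (limma, adjusted p = 0.255).

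For the proteins that act with these RNAs, only the transcripts were measured. All of those listed were tested, and 0 were called in either direction (limma). The 4 core proteins of box C/D particles had a median difference of -0.06 and the 4 of box H/ACA particles one of 0.10. The 14 assembly factors had a median of 0.01, with 8 higher and 6 lower. The 20 Sm and U snRNP proteins had a median of 0.13, with 13 higher and 7 lower. In each of these lists 0 genes were called (limma), against a median of 0.03 over all genes tested.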

How the data were processed

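RNA from 9 brain samples was sequenced with QuantSeq libraries, per the labels' protocols, and aligned with Bowtie2 to mm10, per the submitters' processing notes. The counter, the strand setting and the tool behind the TG values are not given in these sources. The WT columns hold whole counts per RefSeq transcript as deposited, totalling 10612290 to 14041951 per library. The TG columns hold log2 values as deposited by the authors, read as log2(FPKM + 1) from the values. The TG depth was read from steps in the values and came to between 9980000 and 13840000 reads.

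The members, the gene lists and the tests were chosen with earlier results of these data known. Symbols came from RefSeq on GRCm38.p6 (32390 of 33299 rows) and lengths from GENCODE M21 (31960 rows). Transcripts were summed per gene on the linear scale and written as log2(value + 1). The 12699 genes with a mean of at least 1 over the 6 TG libraries entered a limma fit (version 3.58.1, R 4.3.3) that used a variance trend and robust shrinkage. Benjamini-Hochberg adjustment ran over all of them, with calls at 0.05. Such differences understate the change of low genes. WT and TG columns were not tested against each other. The fit was tested on simulated data.

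Bases were taken off each transcript's length per library so that low values fell on whole reads (0.5 to 6.5 reads, tolerance 0.2), and a CPM value was given only where at least 100 bases were left. Below 700 bases this offset is an extrapolation. It was added after the values were seen, as was the comparison of small RNA values with their lower boundary.

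Genes were named by rule: hosts above 0 in all 9 libraries, small RNAs above 0 in at least 6, members called, members at 0 in 1 whole group and above 0 in another, and the highest value in each other family. Snhg7 has no length in the annotation, and Snhg9 is too short for the offset.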

Additional observations from a re-analysis of the deposited data

How the results depend on the processing

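The count of members called was 1 as reported. It was 0 when only genes above 0 in all 6 TG libraries were tested, where Rnu12 drops out by construction, 0 with the full length taken out and 0 with each library's offset taken out, where small RNAs have no value. Leaving out 1 library at a time gave 1 to 6 calls, with 6 without TG placebo 1 (Rnu12, Snora81, Snord15a, Snhg6, Snhg17 and Snhg20) and 2 without TG placebo 3 (Rnu12 and Snord17). Snora81 and Snord15a were at 0 in TG placebo 1 and in every NM-101 library. Snord17 was above 0 in TG placebo 3 alone of its group. Leaving out those libraries separated these small RNAs fully between the groups by construction, so their calls are no support for a difference. The count over all genes was 17 as reported, 4 with no filter, 0 with the filter on all 6 libraries (1894 before adjustment), 4 with median-ratio scaling, 3 with the full length out, 3 with the offset out, 4 without variance trend and robust shrinkage and 7 with transcripts kept apart. Leaving out 1 library gave 2 to 2269 calls among the 12699 genes tested, the highest without TG placebo 1. Same-numbered NM-101 and TG placebo libraries did not vary together (correlations of 0.04, -0.03 and -0.02), so the numbers were not taken as pairs, and the fit with a replicate block called 3 genes. The host median turned to -0.018 for NM-101 minus TG placebo, to -0.23 for NM-101 minus WT and to -0.27 for TG placebo minus WT with the offset out. The members above 0 in WT 2 fell to 17 at 3 or more counts, against 27. Rnu12 was at 0 in every NM-101 library, so its direction could not change in any alternative that gave it a value. Its adjusted p missed the threshold in 1 of these alternatives, the full length taken out. Counts of implied reads for small RNAs on full length are not realistic and were not used. What depth allows for a small RNA at 0 is given with the WT counts.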
